A study of Mus musculus with 4 samples.

Results

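The cyclins, cyclin-dependent kinases (Cdks) and mitotic kinases described here are 44 genes of the cell division and transcription machinery other than cyclin Y, its relatives and the kinases they bind. They were taken by name, and a gene was measured where a probe set of the array is annotated with its symbol and no other, the brightest probe set standing for it. On this rule 43 of the 44 were measured, of 18193 genes on the array, and all 43 were bright enough to be tested. For *Ccnb1*, the gene of cyclin B1, the annotation used here names no probe set. The testes came from WT and *Ccnyl1*-/- male mice of the strain C57BL/6, all 2 months old, with 2 mice per genotype and 1 Affymetrix GeneChip array per mouse. The *Ccnyl1*-/- mice carry the KO-first allele of the European Conditional Mouse Mutagenesis Program, in which a *LacZ* cassette with a stop codon and a polyA signal interrupts *Ccnyl1* in every cell. Mice of 1 genotype are labelled as biological replicates. The labels give no treatment and nothing else that sets the groups apart.

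A cyclin is a regulatory subunit that switches on the Cdk it binds, and its abundance usually sets when that kinase acts. D cyclins with Cdk4 or Cdk6 carry cells through G1, E and A cyclins with Cdk2 act around DNA replication, and A and B cyclins with Cdk1 drive the entry into division, which Polo-like and Aurora kinases and the anaphase activator Cdc20 then carry out. Another branch of the family, among them cyclins C, H, K, L and T, works with its kinases on RNA polymerase II and on splicing rather than on the cell cycle. In the testis the mitotic machinery serves spermatogonia, and a partly germ cell specific set, with cyclin A1 and Aurora kinase C as its best known members, serves the meiotic divisions of spermatocytes. A testis array averages over all of these cells, so that fewer cells of a type and less RNA per cell cannot be told apart in any value below.

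*Ccnyl1* itself had signals of 2256 and 2425 in the WT and 921 and 969 in the *Ccnyl1*-/- mice. It fell in the *Ccnyl1*-/- testes to 40.4% of the WT mean (adjusted p = 0.00463 from limma), with -1.29 as its log2 fold change. This call was lost with limma's spread fitted without a trend on signal (adjusted p = 0.596) and with the methods' t-test (adjusted p = 0.723). Whether the probes lie before or behind the cassette was not analysed here. *Cdk16*, the kinase that the study pairs with CCNYL1, had 1143 and 1330.0 in the WT and 1195 and 1065 in the *Ccnyl1*-/- mice, and its genotypes overlapped. Log2 signals of the arrays correlated at 0.977 to 0.98 across probe sets. The 8 markers of elongating spermatids had mean signals of at least 17924, and their summed signals lay between 226732 and 236060 on the 4 arrays. The summed markers of spermatogonia in the *Ccnyl1*-/- mice were 108% of those in the WT mice, and those of spermatocytes were 106%. Such a sum follows its brightest markers. In each of these cell types 6 of 8 markers had positive log2 fold changes and 2 negative ones. *Dmc1*, a negative one of spermatocytes, was at 63.8% of its WT mean. The sums of 4 Leydig cell markers were 6741 and 3708 in the WT and 8883 and 4946 in the *Ccnyl1*-/- mice, and those of 5 macrophage markers were 2496 and 1554 against 1634 and 1398. All 5 macrophage markers had negative log2 fold changes. As a share of the WT sums, those in the *Ccnyl1*-/- mice were 98.0% for round spermatids, 99.8% for elongating spermatids, 96.3% for Sertoli cells, 112% for peritubular myoid cells and 103% for endothelium. Of the blood markers 2 of 4 were measured (91.5%), and of the epididymis markers 1 of 4, at a mean signal of 38.7. The Sertoli cell sum came mostly from *Clu* (mean signal 16336, 93.9% of its WT mean). Of the 8 Sertoli cell markers 6 had positive and 2 negative log2 fold changes. The part of these cell types in the members' values was not tested.

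No cyclin, Cdk or mitotic kinase passed the test between *Ccnyl1*-/- and WT testes. The test was limma's moderated test on log2(signal + 16) over 32438 probe sets, with p-values adjusted over all of them by Benjamini-Hochberg and a threshold of 0.05, and it called 0.0123% of all probe sets. The lowest adjusted p among the 43 genes, on their brightest probe sets, was 0.725 from limma. At an unadjusted p under 0.05 there were 2 of them, *Ccnd3* and *Ccni*, or 4.65%, where 6.05% of all tested probe sets lay under it. Both had lower signals in the *Ccnyl1*-/- mice. Of the 1964 probe sets under that level, 839 were lower in the *Ccnyl1*-/- mice, or 2.59% of all tested probe sets. With the methods' t-test 0 members passed after adjustment and 2 others, *Ccnc* and *Ccne1*, had an unadjusted p under 0.05, as had 5.86% of all tested probe sets. The genotypes did not overlap for 17 of the 43 genes (39.5%), against 35.9% of all tested probe sets. Of these, 10 were higher and 7 lower in both *Ccnyl1*-/- mice, where 20.6% and 15.3% of all probe sets were. Among the brightest probe sets of all 15268 tested genes, 2710 lay apart and higher and 2798 lay apart and lower.

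Log2 fold changes of the members, as *Ccnyl1*-/- over WT, ran from -0.34 for *Cdk3* to 0.37 for *Ccnb3*, and 28 were positive and 15 negative. The positive share was 65.1%, beside 54.8% of all tested probe sets and 49.9% of the brightest probe sets of all 15268 tested genes. The median of the members was 0.033, beside 0.022 over all tested probe sets and -0.00036 over those brightest probe sets. With quantile normalization 27 were positive and 16 negative. With arrays scaled to one median, which shifts all probe sets of an array alike, 18 were positive and 25 negative. Without *Ccnyl1*-/- replicate 1 there were 22 and 21. For 37 of the 43 genes (86.0%) the 95% interval of the difference stayed inside 1.5-fold in both directions, and for 41 (95.3%) inside 2-fold. Over all tested probe sets these shares were 46.8% and 75.8%, and over those brightest probe sets 60.0% and 83.4%. The median of the mean signals was 1095 for the members, 202 over all tested probe sets and 387 over those brightest ones. The part of signal in these shares was not tested. Mean signals of 1000 or more were found for 22 members, and all 22 of their intervals lay within 1.5-fold, as did 97.5% of all tested probe sets so bright. The 4 members under a mean signal of 200, *Cdk3*, *Ccnj*, *Ccnb3* and *Ccno*, had intervals that all reached past 1.5-fold. For 32 of the 43 genes, the ratio between the mice of a genotype was larger, in at least 1 genotype, than the ratio between the genotype means. The median of the larger ratio between mice was 1.12, and that of the ratio between means was 1.06. A larger of such ratios between single mice tends to exceed a ratio of means even without a difference, so the count does not speak on genotype.

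**Figure D1:**
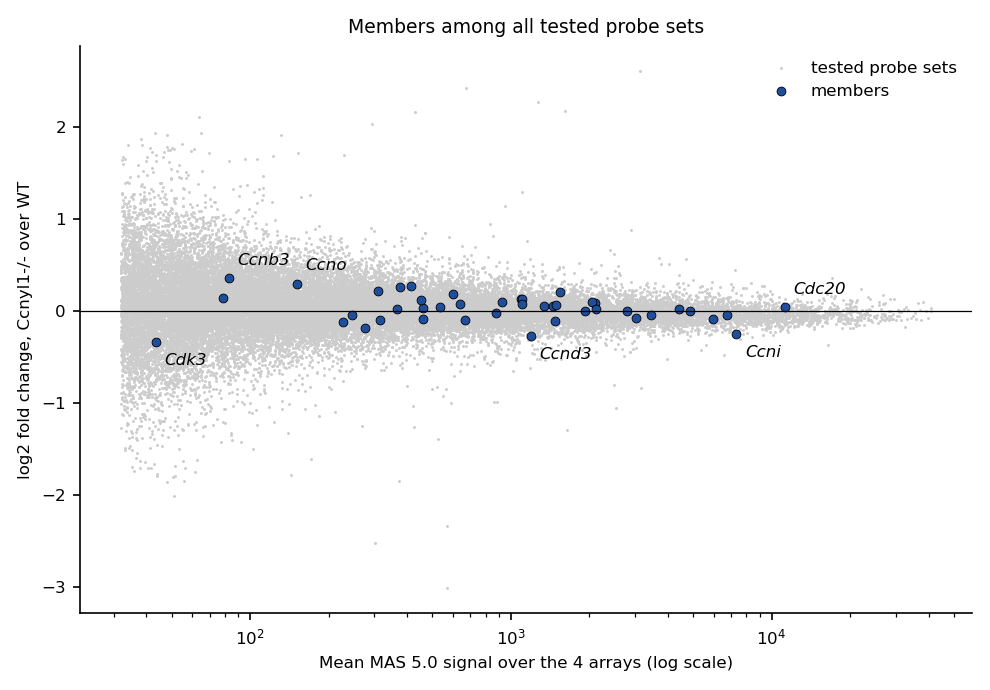
The vertical axis gives log2 fold changes (*Ccnyl1*-/- over WT) and the horizontal axis, on a log scale, the MAS 5.0 signal averaged over 4 arrays, with a grey point for each of the 32438 tested probe sets and a blue point for each of the 43 members. The members lie between -0.34 and 0.37, inside the cloud of all probe sets, and *Ccni* and *Ccnd3* lie lowest among the brighter members.

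**Figure D2:**
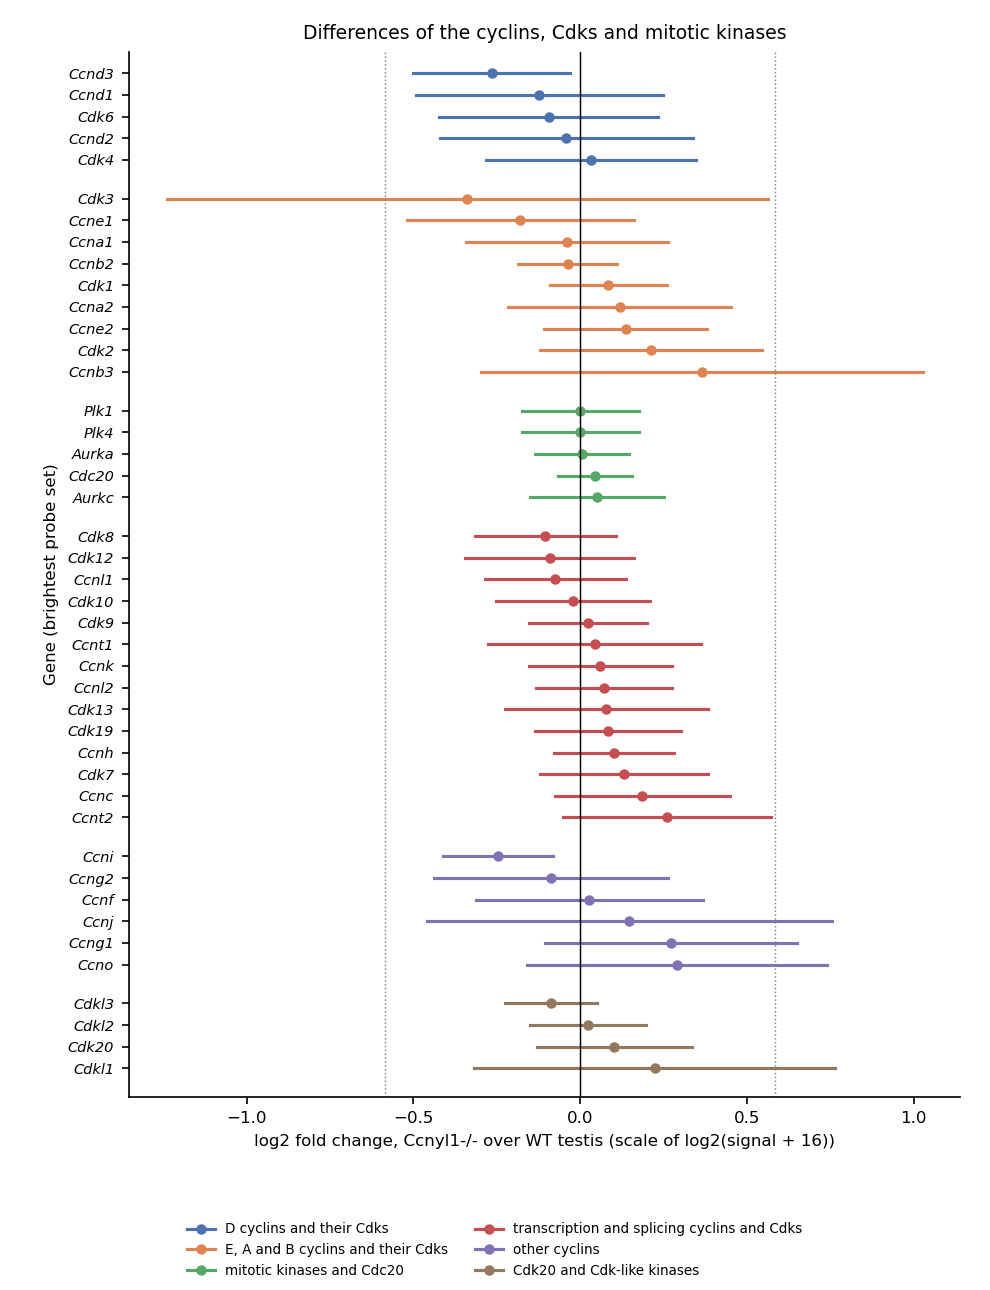
Log2 fold change (point) and its 95% interval from limma (line) for the 43 members, coloured by role, with dotted lines at 1.5-fold either way. The intervals of *Ccnd3* and *Ccni* alone leave out 0, without correction for the number of tests. Of the 43 intervals 37 (86.0%) lie between the dotted lines, as do 46.8% of those of all tested probe sets.

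The D cyclins and their kinases, which carry cells through G1, held, in *Ccnd3*, the lowest log2 fold change of any member except *Cdk3*. *Ccnd3*, the gene of cyclin D3, had signals of 1367 and 1239.8 in the WT and 1141 and 1022 in the *Ccnyl1*-/- mice, so that both *Ccnyl1*-/- mice lay below both WT mice. The *Ccnyl1*-/- mean was 83% of the WT mean, -0.27 on the log2 scale (95% interval -0.50 to -0.029), which did not pass (adjusted p = 0.797 from limma). Without each mouse in turn it ran from -0.34 to -0.19. A dimmer probe set of *Ccnd3* had 41.7 and 49.3 in the WT and 61.8 and 47.3 in the *Ccnyl1*-/- mice, with a log2 fold change of 0.19 and overlapping genotypes.

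*Ccnd1*, which encodes cyclin D1, had 234 and 240.4 in the WT and 226 and 208 in the *Ccnyl1*-/- mice (-0.12 on the log2 scale). *Ccnd2*, the cyclin D2 gene that responds to retinoic acid in differentiating spermatogonia, had 262 and 239 in the WT and 262 and 225 in the *Ccnyl1*-/- mice (-0.041). The genotypes lay apart for *Ccnd1*, whose other tested probe sets had positive values of 0.18 and 0.093, and overlapped for *Ccnd2*, whose other 5 tested probe sets all had positive values, from 0.052 to 0.44. *Cdk4*, a kinase partner of the D cyclins, had 446 and 461 in the WT and 507 and 425 in the *Ccnyl1*-/- mice (0.033). *Cdk6*, the other partner, had 337 and 313 in the WT and 306 and 301 in the *Ccnyl1*-/- mice (-0.094), with both *Ccnyl1*-/- mice below both WT mice by a small margin. Its other tested probe set had 290.2 and 255 in the WT and 296 and 332 in the *Ccnyl1*-/- mice, and lay apart in the opposite direction (0.19). On the brightest probe sets 4 of the 5 genes of this group had a negative and 1 a positive value, with a median of -0.094. The genotypes did not overlap for 3 of them, all lower in the *Ccnyl1*-/- mice, where 35.9% of all tested probe sets lay apart and 15.3% were lower. Among the brightest probe sets of all 15268 tested genes, 2798 lay apart and lower. With all probe sets of a gene averaged, *Ccnd1* (0.051), *Ccnd2* (0.19) and *Cdk6* (0.050) turned positive and *Ccnd3* was at -0.036.

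Among the E, A and B cyclins and their kinases, which serve DNA replication, meiotic prophase and the entry into division, 5 of 9 measured genes had a positive and 4 a negative value, with a median of 0.085. *Ccna1*, the germ cell cyclin A1 that spermatocytes need to enter the first meiotic division, had 2957 and 4109.9 in the WT and 3373 and 3409.7 in the *Ccnyl1*-/- mice. The *Ccnyl1*-/- mice were nearly equal and lay between the WT mice, which differed by a ratio of 1.39. Its log2 fold change was -0.040 (interval -0.34 to 0.26), and it turned from -0.28 without WT replicate 1 to 0.20 without WT replicate 2. *Ccna2*, the cyclin A2 of mitotic cells, had 388 and 483 in the WT and 459.7 and 484 in the *Ccnyl1*-/- mice (0.12), and WT replicate 1 was the low mouse.

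*Ccnb2*, the gene of cyclin B2, had 7080.2 and 6566 in the WT and 6911 and 6389.8 in the *Ccnyl1*-/- mice. Its difference was -0.037 with an interval of -0.19 to 0.11, and the genotypes overlapped. *Cdk1*, the kinase that these cyclins switch on, had 2060.0 and 2010.3 in the WT and 2193 and 2126 in the *Ccnyl1*-/- mice. Both *Ccnyl1*-/- mice lay above both WT mice, and the log2 fold change was 0.085 (interval -0.090 to 0.26; adjusted p = 0.894 from limma). *Ccnb3*, a cyclin of early meiotic prophase, had the largest positive value of all members, 0.37, on signals of only 82.6 and 58.5 in the WT and 109.5 and 81.2 in the *Ccnyl1*-/- mice. They overlapped, and the interval of -0.30 to 1.03 includes 0 and a 2-fold difference.

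*Cdk2*, which holds telomeres at the nuclear envelope in spermatocytes beside its part in replication, had 1379 and 1455 in the WT and 1946 and 1389 in the *Ccnyl1*-/- mice. A single mouse, *Ccnyl1*-/- replicate 1, was high and the other 3 lay close together. The log2 fold change of 0.21 became -0.029 without that mouse. *Ccne1*, an E cyclin that binds Cdk2, had 292 and 295 in the WT and 263 and 252 in the *Ccnyl1*-/- mice (-0.18), with both *Ccnyl1*-/- mice below both WT mice. *Ccne2*, the other E cyclin, had 975 and 1112 in the WT and 1099.8 and 1195 in the *Ccnyl1*-/- mice (0.14), and the genotypes overlapped. The *Ccne1* probe set carries the suffix _x_at, which Affymetrix gives to sets with probes that may also bind other transcripts, and its other probe set had -0.0078. *Cdk3*, a little studied relative of Cdk2, was near the minimum signal, with 53.8 and 46.6 in the WT and 26.6 and 48.2 in the *Ccnyl1*-/- mice, and its interval of -1.24 to 0.56 was the widest of all.

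The mitotic kinases and Cdc20 build the spindle and start anaphase. On their brightest probe sets, signals in *Ccnyl1*-/- testes were nearly those of WT testes. The other probe sets of *Cdc20*, given further below, lay apart in opposite directions, at 90.2% and 138% of the WT mean. *Plk1*, the Polo-like kinase of spindle and chromosome segregation, had 1914 and 1921 in the WT and 1928 and 1910.0 in the *Ccnyl1*-/- mice. Its 4 mice lay closer together than those of any other member drawn in the plot of signals per mouse, and its log2 fold change was 0.0011 (interval -0.18 to 0.18). *Plk4*, the kinase of centriole duplication, had 2883 and 2679 in the WT and 2692 and 2874 in the *Ccnyl1*-/- mice, with a log2 fold change of 0.0012 (interval -0.17 to 0.18). In each genotype of *Plk4* 1 mouse was high and the other low, by a similar margin.

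*Aurka*, Aurora kinase A of the spindle poles, had 5001 and 4717 in the WT and 4921 and 4835 in the *Ccnyl1*-/- mice (0.0062, interval -0.14 to 0.15). *Aurkc*, the Aurora kinase of meiotic chromosomes, had 1281 and 1342 in the WT and 1355 and 1363 in the *Ccnyl1*-/- mice (0.051, interval -0.15 to 0.25). The *Aurka* mice overlapped, while the *Aurkc* mice of the *Ccnyl1*-/- genotype lay above the WT mice by less than the WT mice differed. *Cdc20*, the activator of the anaphase-promoting complex, had 11235 and 10974 in the WT and 11208 and 11721 in the *Ccnyl1*-/- mice on its brightest probe set, with overlapping genotypes and a log2 fold change of 0.046 (interval -0.065 to 0.16). The 5 values were all positive, with a median of 0.0062, and all 5 were negative with arrays scaled to one median, between -0.054 and -0.0036.

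**Figure D3:**
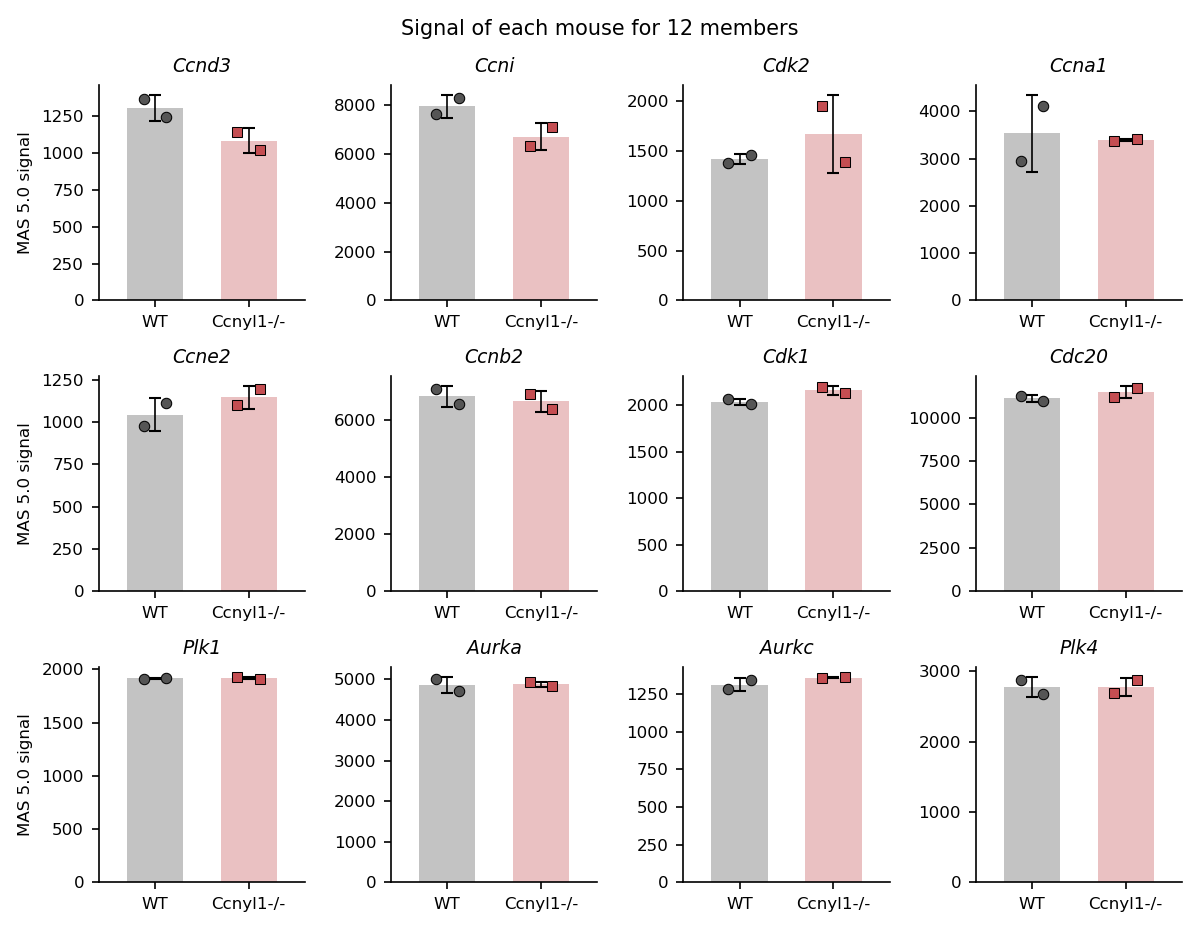
MAS 5.0 signals (vertical axis from 0, intensity units) of 12 members on their brightest probe sets, with bars for the mean of 2 mice per genotype, lines for the SD and dots for single mice, replicate 1 on the left. The mice of *Plk1*, *Aurka* and *Plk4* are level between genotypes, those of *Ccnd3* and *Ccni* lie apart, and *Cdk2* and *Ccna1* each have 1 genotype whose mice differ widely.

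Promoters of genes that peak at cell division often hold a cell cycle gene homology region, a short element bound by the MuvB complexes, with CCAAT boxes nearby. Promoter windows of RefSeq (GRCm38.p6, 250 bases before to 50 bases after the start site) were found for 36 of the 44 members. The letters TTTGAA, searched on both strands, were in the windows of 7 members, 19.4%, and in 17.9% of all 32851 windows. CCAAT was in those of 20 members, 55.6%, against 37.4% of all windows, also on both strands, and the motifs can share 1 base at an end. The shares of members count genes, for which any window of the gene sufficed, and the general shares count windows. Of the 7, 5 were members of the A and B cyclin and mitotic kinase groups, each of which also had CCAAT in its window, and the others were *Ccnf*, which had CCAAT too, and *Ccni*, which had not. By group, TTTGAA was found for 2 of 7 E, A and B cyclins and their Cdks that had a window. It was found for 3 of 5 mitotic kinases with Cdc20 and for 2 of 6 other cyclins. This uneven spread was not tested. A match is a description of these letters only. The sequences of the 5 are shown because these are the cyclin, kinases and activator of division whose windows hold these letters, a share of members close to that of all windows, and each is the copy nearest to the start site with 12 bases on either side and TTTGAA in capitals.
Cdk1: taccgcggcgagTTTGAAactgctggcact
Ccnb2: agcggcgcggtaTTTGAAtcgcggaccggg
Cdc20: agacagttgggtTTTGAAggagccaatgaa
Plk1: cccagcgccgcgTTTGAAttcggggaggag
Aurka: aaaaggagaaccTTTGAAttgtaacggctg
These stretches read 5′ to 3′ on the strand of the gene, at chr10:69352910-69352939, minus strand for *Cdk1*, chr9:70421533-70421562, minus strand for *Ccnb2*, chr4:118437344-118437373, minus strand for *Cdc20*, chr7:122159453-122159482, plus strand for *Plk1* and chr2:172370521-172370550, minus strand for *Aurka*. Counted from the start site at 1, the first capital is at -15, 5, -18, 31 and 33 in the same order. On the array these 5 genes had log2 fold changes between -0.037 and 0.085.

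The cyclins and Cdks of transcription and splicing, which act in every cell, had 10 positive and 4 negative values, with a median of 0.066 and none past the test. *Ccnh*, a subunit of the Cdk-activating kinase and of the general factor TFIIH, had 1981 and 1986 in the WT and 2062 and 2197 in the *Ccnyl1*-/- mice (0.10). The *Ccnyl1*-/- mice lay above the WT mice, and they did so on all 3 of its tested probe sets, whose log2 fold changes were 0.10, 0.19 and 0.17. *Cdk7*, the kinase that cyclin H activates, had 1142 and 961 in the WT and 1172 and 1128 in the *Ccnyl1*-/- mice (0.13), with overlapping genotypes.

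*Ccnc*, the cyclin of the Mediator kinase module, had 578 and 546 in the WT and 647 and 637 in the *Ccnyl1*-/- mice (0.19; adjusted p = 0.855 from limma), with both *Ccnyl1*-/- mice above both WT mice. Its kinases *Cdk8* (-0.10) and *Cdk19* (0.083) lay on opposite sides of 0. *Ccnt2*, which with Cdk9 releases paused RNA polymerase II, had 326 and 356 in the WT and 417 and 405 in the *Ccnyl1*-/- mice and the largest value of the group, 0.26 (interval -0.052 to 0.57). *Ccnt1* (0.043) and *Cdk9* (0.023), the partners in the same complex, were nearer to 0. *Cdk12*, a kinase of elongation that binds cyclin K, had 672 and 707 in the WT and 659.9 and 633 in the *Ccnyl1*-/- mice (-0.091), with both *Ccnyl1*-/- mice lower by a small margin. *Ccnk* (0.061) and its other kinase *Cdk13* (0.079), the splicing-related *Ccnl1* (-0.074) and *Ccnl2* (0.071), and *Cdk10* (-0.022) completed the group. The intervals of all 14 genes lay within 1.5-fold of the WT level. So did 46.8% of those of all tested probe sets and 60.0% over the brightest probe set of every gene. Genotypes did not overlap for 6 of these genes (42.9%), 5 of them higher, where 35.9% of all tested probe sets lay apart and 20.6% were higher. Among the brightest probe sets of all 15268 tested genes, 2710 lay apart and higher.

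Of the other cyclins, *Ccni* had the lowest unadjusted p of all members on their brightest probe sets. A dimmer probe set of *Cdc20*, given further below, had a lower one. Cyclin I is found in many tissues whose cells no longer divide, and it binds Cdk5. Its gene had 7625 and 8294 in the WT and 6319.6 and 7110.5 in the *Ccnyl1*-/- mice, and both *Ccnyl1*-/- mice lay below both WT mice. The *Ccnyl1*-/- mean was 84.4% of the WT mean, -0.25 on the log2 scale (interval -0.41 to -0.081), and it did not pass (adjusted p = 0.725 from limma). Without each mouse in turn it ran from -0.33 to -0.16. On its other probe sets *Ccni* had 0.061 and -0.041 and genotypes that overlapped, so that the difference was seen on 1 of 3.

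*Ccng1*, a cyclin gene induced by p53, had 428 and 322 in the WT and 479 and 428 in the *Ccnyl1*-/- mice (0.27), and *Ccno*, a cyclin of cells that grow many cilia, had 142 and 126 in the WT and 178 and 157 in the *Ccnyl1*-/- mice (0.29). WT replicate 2 was the low mouse for *Ccng1*, where *Ccnyl1*-/- replicate 2 nearly equalled WT replicate 1, while both *Ccnyl1*-/- mice lay above both WT mice for *Ccno*. Their intervals reached from -0.10 to 0.65 and from -0.16 to 0.74. *Ccng2* (-0.087), *Ccnj* (0.15) and *Ccnf* (0.027), the F-box protein of a ubiquitin ligase, made up the rest.

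Cdk20 and the Cdk-like kinases are relatives of the Cdks with no firmly known cyclin, and some are tied to cilia. *Cdkl3* had 5973 and 6262 in the WT and 5614 and 5903 in the *Ccnyl1*-/- mice (-0.087, interval -0.22 to 0.049), and its genotypes lay just apart. *Cdkl1* had 244 and 319 in the WT and 257 and 420.0 in the *Ccnyl1*-/- mice (0.22), where *Ccnyl1*-/- replicate 2 was the high mouse and the value turned to -0.11 without it. *Cdkl2* (0.024) and *Cdk20* (0.10), the latter a regulator of ciliary transport, completed the group, in which 3 values were positive and 1 negative.

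Several probe sets of a gene read different parts of its transcripts, and their log2 fold changes often had opposite signs. The 43 genes had 104 probe sets, of which 95 were tested, and 26 genes had more than 1. In 8 of the 26 the signs were the same throughout, positive in 7 and negative in 1, and in 18 they were mixed. The median span between the highest and the lowest log2 fold change of a gene was 0.31, and 6 genes had a span over 0.5. No probe set passed the test, and 5 of the 95 (5.26%) had an unadjusted p under 0.05, against 6.05% of all tested probe sets. Of the 5, 2 were of *Cdc20*, 1 of *Cdk7*, 1 of *Ccnd3* and 1 of *Ccni*. The lowest unadjusted p of them was 0.00247 from limma, on the dimmest probe set of *Cdc20*, beside 0.00871 for *Ccni*.

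*Cdc20* had probe sets that lay apart in opposite directions. Its second probe set had 5149.8 and 5117 in the WT and 4664 and 4593 in the *Ccnyl1*-/- mice (-0.15; adjusted p = 0.797 from limma), and the next 594 and 586 in the WT and 820.5 and 813 in the *Ccnyl1*-/- mice (0.46; adjusted p = 0.645 from limma). In both the mice of a genotype lay close together and the genotypes apart, while on the brightest probe set they overlapped. The brightest and the dimmest carry the suffix _x_at, and the part of other transcripts in their signals was not tested.

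*Cdk7* had the widest span of all, from -0.45 on a probe set with 212 and 194 in the WT and 159 and 130.5 in the *Ccnyl1*-/- mice to 0.41 on its dimmest tested one. *Ccnt2* ran from -0.36, with 267 and 249 in the WT and 218 and 180.3 in the *Ccnyl1*-/- mice, to the 0.26 of its brightest probe set, each with genotypes apart. *Cdkl3* had 0.47 on a dim second probe set, with 97.5 and 84.5 in the WT and 142 and 122 in the *Ccnyl1*-/- mice. *Ccnc* ran from -0.29 to 0.28 over 4 probe sets and *Cdk12* from -0.20 to 0.43 over 6, with none past the test. The narrowest spans were those of *Cdkl2*, with -0.0020 and 0.024, *Ccna2*, with 0.082 and 0.12, and *Plk4*, with -0.035 to 0.015.

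**Figure D4:**
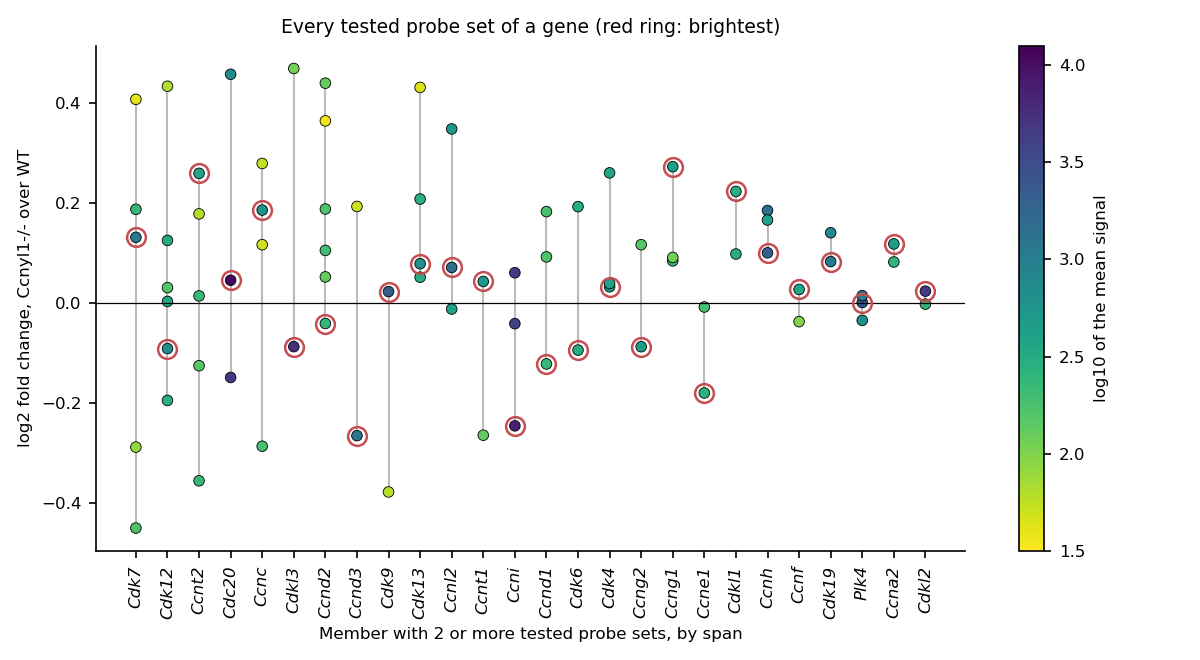
Log2 fold change of *Ccnyl1*-/- over WT for every tested probe set of the 26 members that have more than 1, ordered by span, with the colour showing log10 of the mean signal and a red ring around the brightest probe set. The probe sets of *Cdk7*, *Cdk12*, *Ccnt2*, *Cdc20*, *Ccnc* and *Cdkl3* span over 0.5, and 18 of the 26 genes have values on both sides of 0.

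The genes that control these kinases also had no member past the test. Of 65 listed inhibitors, phosphatases, E2F and pocket proteins, subunits of the anaphase-promoting complex, checkpoint proteins and further mitotic kinases, 64 were tested, with 32 positive and 32 negative values and a median of -0.0025. At an unadjusted p under 0.05 there were 2 (3.12%, against 6.05% of all tested probe sets), *Anapc1* and *Cdkn2d*, named after their values were seen. *Anapc1*, the largest subunit of the anaphase-promoting complex, had 675 and 534 in the WT and 903 and 757 in the *Ccnyl1*-/- mice (0.45; adjusted p = 0.758 from limma). *Cdkn2d*, an inhibitor of Cdk4 and Cdk6 that is known from spermatocytes, had 2342 and 2352 in the WT and 2730.0 and 2726 in the *Ccnyl1*-/- mice (0.22; adjusted p = 0.758 from limma). For both genes the *Ccnyl1*-/- mice lay above the WT mice, and the genotypes did not overlap for 24 of the 64 (37.5%), against 35.9% of all tested probe sets.

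The highest values besides *Anapc1* were those of *E2f2*, an activator of replication genes (0.78), and *Cdkn1b*, the p27 inhibitor (0.39). *E2f2* had only 41.4 and 4.97 in the WT and 27.1 and 66.9 in the *Ccnyl1*-/- mice, and its interval of -0.62 to 2.19 was wide. *Cdkn1b* had 166 and 131 in the WT and 222 and 176 in the *Ccnyl1*-/- mice, with the *Ccnyl1*-/- mice above the WT mice. The largest negative values were those of *Fbxo5*, an inhibitor of the anaphase-promoting complex (-0.32), *Nek2*, a centrosome kinase (-0.28), and *Mad2l1*, the spindle checkpoint protein (-0.21). *Mad2l1* had 1130.2 and 1105 in the WT and 966 and 959.6 in the *Ccnyl1*-/- mice (interval -0.43 to 0.0041; adjusted p = 0.82 from limma), with close replicates and genotypes apart. *Nek2* had 7620.5 and 10936 in the WT and 7150.4 and 7898 in the *Ccnyl1*-/- mice, where WT replicate 2 was the high mouse, and the genotypes overlapped. *Fbxo5* had 195 and 159 in the WT and 189.9 and 100 in the *Ccnyl1*-/- mice, and its genotypes overlapped as well.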

How the data were processed

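Total RNA of WT and *Ccnyl1*-/- testes was hybridised to 1 Affymetrix GeneChip Mouse Genome array per mouse. The authors processed the scans with MAS (5), and the table they deposited holds 1 linear signal intensity per probe set, whose trimmed mean is 500.0 on every array although the methods state a target of 100. The offset, minimum and trend below were carried over from an earlier analysis of these data, which set the offset and minimum for that target. Scan dates and read-outs of detection were not analysed here. The 64 control probe sets were left out, and 32438 of 45101 probe sets with a mean signal of at least 32 were tested. The log2 values of the deposited signals, after adding 16, were compared with limma 3.58.1 (lmFit, eBayes with a trend) in R 4.3.3, with Benjamini-Hochberg adjustment over all of them and a threshold of 0.05. An exact permutation of 2 mice against 2 cannot give a two-sided p below 0.333. Probe sets were named by the platform annotation, by which 34945 have 1 symbol, and all 43 member symbols were found in RefSeq. The script was tested on simulated data. The members, the pathway list, the marker lists and the tests were chosen with earlier results of these data known. Every member was named, and its 4 signals were given where it had an unadjusted p under 0.05, was among the 5 highest or 5 lowest log2 fold changes, was a gene of division or of the D or E cyclins, or had tested probe sets over 0.5 apart. Those of *Ccnh* were given outside this rule, after its values were seen. Of the pathway list, the 3 highest and 3 lowest were named, and *Cdkn2d* was added for its unadjusted p after its values were seen. Alternatives covered the offset, minimum, normalization, scale, variance estimate, test, replicate block, choice of probe set and each mouse left out.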

Additional observations from a re-analysis of the deposited data

How the results depend on the processing

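In none of the 17 alternatives did a cyclin, Cdk or mitotic kinase pass the test. With arrays scaled to one median, the median log2 fold change of the members became -0.021 and that of the pathway list -0.056, and values turned negative for *Cdk4* (-0.021), *Plk1* (-0.054), *Plk4* (-0.054), *Aurka* (-0.049), *Aurkc* (-0.0036), *Cdc20* (-0.0092), *Ccnt1* (-0.010), *Cdk9* (-0.031), *Ccnf* (-0.025) and *Cdkl2* (-0.031). With quantile normalization *Ccnf* became -0.0094 and the pathway median 0.0049. With signals rescaled to a trimmed mean of 100, which left 39 members tested, the member median became 0.024. With all probe sets of a gene averaged, the member median became 0.051, the pathway median 0.015 and the members at an unadjusted p under 0.05 became 0. Under it *Ccnd1* (0.051), *Ccnd2* (0.19), *Cdk6* (0.050), *Cdk12* (0.051), *Ccng2* (0.015) and *Cdkl3* (0.19) turned positive, and *Plk4* (-0.0062), *Ccnt1* (-0.11), *Ccnt2* (-0.0057), *Cdk7* (-0.0022), *Cdk9* (-0.18) and *Ccnf* (-0.0049) negative. *Ccnd3* and *Ccni*, the members at an unadjusted p under 0.05, became -0.036 and -0.075 under it. Probe sets without suffixes, which left 38 members, gave a member median of 0.025 and -0.15 for *Cdc20*. There *Cdc20*, beside *Ccnd3* and *Ccni*, had an unadjusted p under 0.05 from limma. Without the trend on signal, limma called 0 of all probe sets, against 4, and 0 members were at an unadjusted p under 0.05, and *Ccnyl1*, at -1.29, was not called. The methods' t-test also called 0 probe sets, and *Ccnyl1*, at -1.29, was not called. The cause of these moves was not tested. With the replicate number as a block, 14 of all probe sets were called (4 higher and 10 lower), against 0 higher and 4 lower without it. No member and no gene of the pathway list was called, and the lowest adjusted p of a member was 0.317 from limma. Deviations of same-numbered mice correlated at 0.014 over all probe sets and 0.37 over the 43 members, and with 2 mice per genotype the labels show no pairing beyond the number. Leaving out each mouse in turn, with the lone mouse assumed to vary like the others, gave 6 to 55 probe sets called (55 without WT replicate 2 and 46 without WT replicate 1). It gave 27 to 33 members whose genotypes did not overlap, since 1 mouse separates more easily than a pair. No share of all tested probe sets is given beside these counts, so they do not speak on genotype or on the members. The member median was 0.039 to 0.047 and the pathway median 0.011 to 0.030, and 0 to 1 of the pathway list was called, *Nek2* without WT replicate 1. The sign of 24 members held without each mouse. For the others the range was -0.15 to 0.064 for *Ccnd2*, -0.091 to 0.16 for *Cdk4*, -0.28 to 0.20 for *Ccna1*, -0.034 to 0.27 for *Ccna2*, -0.093 to 0.019 for *Ccnb2*, -0.029 to 0.45 for *Cdk2*, -0.0056 to 0.0077 for *Plk1*, -0.051 to 0.054 for *Plk4*, -0.036 to 0.048 for *Aurka* and -0.022 to 0.14 for *Ccnk*. It was -0.21 to 0.057 for *Ccnl1*, -0.078 to 0.16 for *Ccnt1*, -0.015 to 0.062 for *Cdk9*, -0.054 to 0.010 for *Cdk10*, -0.072 to 0.23 for *Cdk13*, -0.10 to 0.16 for *Ccnf*, -0.22 to 0.048 for *Ccng2*, -0.11 to 0.56 for *Cdkl1* and -0.070 to 0.12 for *Cdkl2*. Over all settings 16 members kept their sign, 11 of them positive and 5 negative. Precision is limited by the number of arrays, and the interval of a member with a mean signal under 200 always reached past 1.5-fold.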
